A study of Mus musculus with 17 samples.

Results

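The genes described here encode 9 receptors of the TNF receptor superfamily, the membrane proteins through which tumour necrosis factor and its relatives act on cells. They were taken by name (Tnfrsf1a, Tnfrsf1b, Tnfrsf12a, Tnfrsf10b, Tnfrsf21, Tnfrsf11b, Fas, Ltbr and Cd40), as every probe set whose only gene symbol in the platform annotation was one of these. They comprised 16 probe sets for 9 genes, out of 45037 probe sets tested and 18193 genes with a probe set of their own. The samples were pancreatic islets, the endocrine clusters that hold the insulin-producing beta cells, from C57BL/6 mice. Every batch was a pool of islets from 4 mice, divided into portions that were collected at once (0 h) or kept in F12K medium with fetal bovine serum for 24 h or 48 h, with no other treatment. No strain, genotype or agent differed between the groups, and time in culture was the only labelled difference. Single-colour Affymetrix mouse arrays were hybridised with amplified, biotin-labelled cRNA, giving 6 arrays for each cultured group and 5 for the fresh islets. For batch 5 the fresh portion (0 h) was not analysed here. Replicate numbers are batch numbers, and p-values therefore measure the spread between separate pools of islets.

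Receptors of this family fall into classes by what lies inside or outside the cell. Some carry a cytoplasmic death domain that can assemble caspase-activating or NF-kappaB-activating complexes. Others bind TRAF adaptor proteins directly, and a few are secreted and act as decoys for a ligand. In islets the family is known mainly from inflammation, in which cytokines such as TNF act on beta cells, and from the immune and endothelial cells that live among them.

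All values are log2 signals made by RMA, a method that corrects background, equalises the distributions of the arrays and summarises the probes of a probe set. The table's median of 3.52 serves as a rough floor, since no detection call accompanied the values, and a signal under it was not separated from background. A gene was represented by its probe set with the highest mean over the 17 arrays. A difference passed at an adjusted p under 0.05 by limma with Benjamini-Hochberg adjustment over all 45037 probe sets. Such a difference is called a rise or a fall here, and the errors of differences are standard errors (SE). Signals of different probe sets are not on a common scale, so that the genes are not ranked by level.

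At 24 h against 0 h, Tnfrsf1a, Tnfrsf12a and Cd40 rose, Tnfrsf11b fell and the other 5 did not pass. Over all 18193 genes 5.44% rose and 6.66% fell in that comparison. At 48 h against 0 h, Tnfrsf1a and Tnfrsf21 rose, Tnfrsf11b fell and 6 did not pass, beside 6.45% and 5.27% of all genes. Between 24 h and 48 h, 0 of the 9 rose and 0 fell by limma, where 0.429% of all genes rose and 0.33% fell. At an unadjusted limma p under 0.05 that comparison held 1 higher receptor (Tnfrsf21) and 4 lower ones (Tnfrsf1a, Tnfrsf12a, Ltbr and Cd40). No share of all genes at that unadjusted threshold is given, here or beside the later unadjusted counts. The percentages above, at an adjusted p, are not a background for them. The median difference of the 9 genes was 0.31 at 24 h, 0.04 at 48 h and -0.11 between 24 h and 48 h. The medians over all probe sets were -0.00644, -0.0136 and -0.00302. In bulk islets, fewer cells of a type and less RNA per cell cannot be told apart. Of the 9 genes, 2 (Fas and Tnfrsf10b) stayed below the table's median throughout and 6 had means above it over all arrays.

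**Figure D1:**
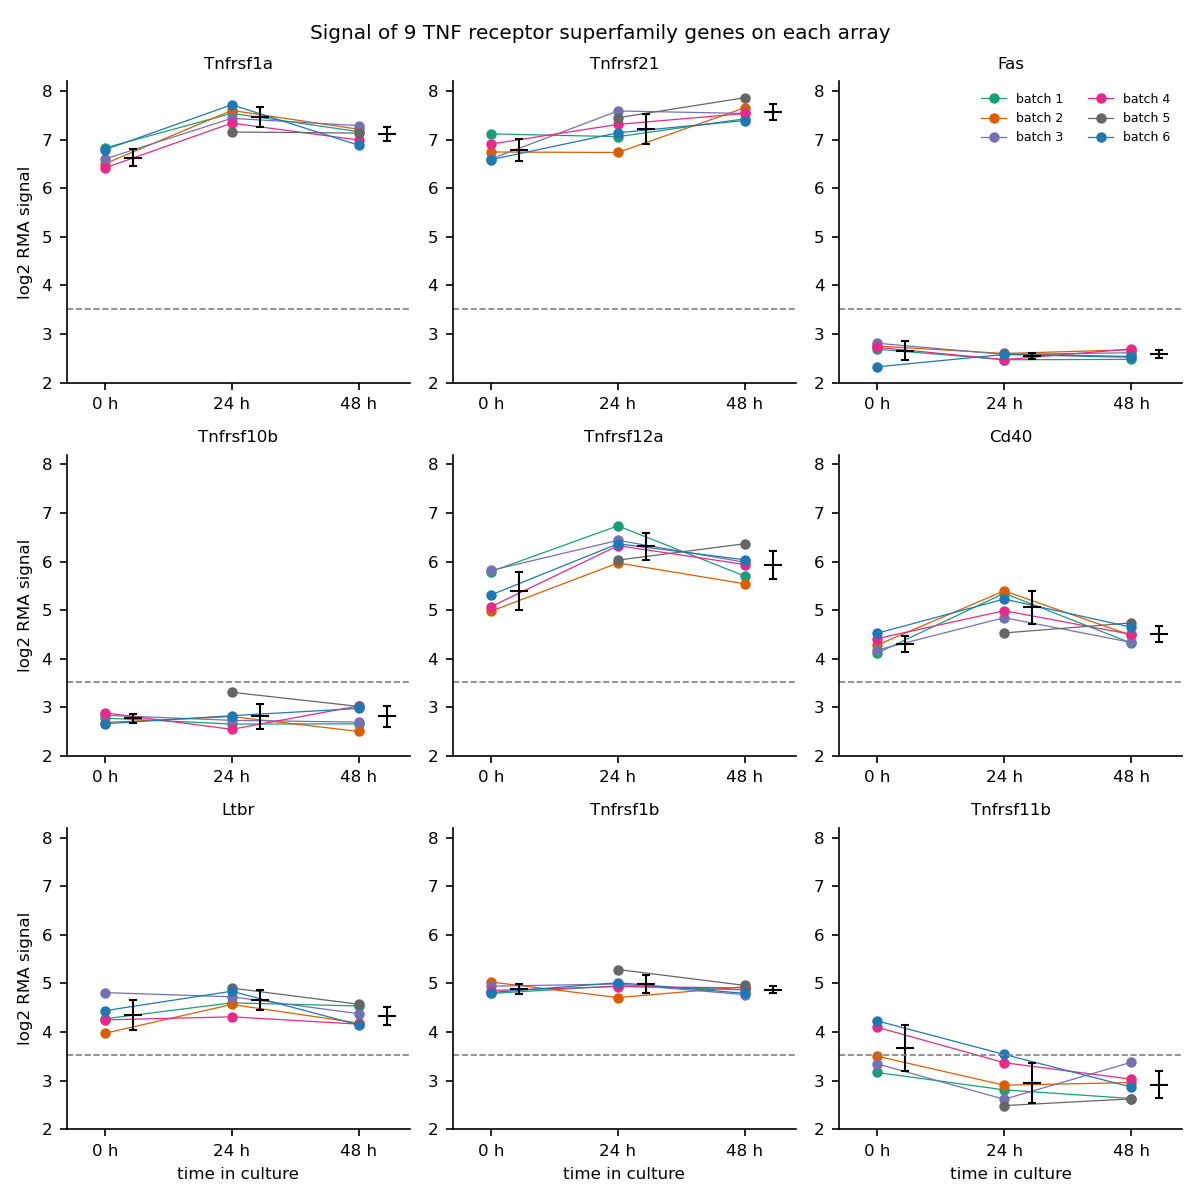
Signal (log2, RMA) of the representative probe set of each of the 9 genes against time in culture, with 1 point per array, lines joining the arrays of a batch, black bars for the mean ± SD of each time, and a dashed line at the table's median of 3.52. Tnfrsf1a, Tnfrsf12a and Cd40 had their highest means at 24 h (7.47, 6.31 and 5.06), Tnfrsf21 at 48 h (7.57), and Fas and Tnfrsf10b stayed under the dashed line.

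Upstream sequence is shown for the receptors that rose by their representative probe sets and had an entry in the RefSeq promoter table (build GRCm38.p6), which held 6 of the 9 members. These are the 250 bases before the annotated start of the gene, 5′ to 3′ on the gene's strand, with CpG dinucleotides in capitals. The windows are chr6:125349473-125349722 on the plus strand for Tnfrsf1a, chr17:23677450-23677699 on the minus strand for Tnfrsf12a and chr17:43016305-43016554 on the plus strand for Tnfrsf21.
Tnfrsf1a: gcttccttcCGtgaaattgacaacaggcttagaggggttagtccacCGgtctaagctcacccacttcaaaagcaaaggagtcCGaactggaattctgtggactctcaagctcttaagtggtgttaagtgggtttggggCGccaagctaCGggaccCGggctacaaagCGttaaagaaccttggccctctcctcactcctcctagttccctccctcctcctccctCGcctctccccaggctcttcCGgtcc
Tnfrsf12a: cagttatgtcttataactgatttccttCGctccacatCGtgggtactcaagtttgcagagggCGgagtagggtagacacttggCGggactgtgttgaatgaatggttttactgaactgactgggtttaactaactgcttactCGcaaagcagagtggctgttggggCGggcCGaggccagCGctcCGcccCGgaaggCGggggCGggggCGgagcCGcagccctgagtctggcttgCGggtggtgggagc
Tnfrsf21: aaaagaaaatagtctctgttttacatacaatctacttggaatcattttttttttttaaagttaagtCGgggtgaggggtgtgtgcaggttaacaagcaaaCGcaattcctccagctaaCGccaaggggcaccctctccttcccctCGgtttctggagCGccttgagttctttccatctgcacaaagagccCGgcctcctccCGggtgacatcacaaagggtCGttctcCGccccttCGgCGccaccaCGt
The windows held 9, 15 and 12 CpG dinucleotides. Both strands of the 300-base windows in the table (250 bases before and 50 after the start) were searched for the NF-kappaB consensus and for TGANTCA, the AP-1 consensus. Among 32841 promoters in the table, 8.46% held the first and 7.81% the second. Of the 6 windows, that of Fas held an AP-1 match (TGAGTCA, 211 to 205 bases before the table's start, which lies 12 bases inside the gene position given for Fas below), and those of Tnfrsf1a, Tnfrsf12a, Tnfrsf21, Tnfrsf1b and Ltbr held neither motif.

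Among the receptors with a death domain, Tnfrsf1a encodes the main receptor for soluble TNF (chr6:125349723-125362483). Its single probe set read 6.83, 6.50, 6.60, 6.42 and 6.79 on the 0 h arrays. The 24 h arrays ran from 7.16 through a median of 7.49 to 7.72, and the 48 h arrays from 6.89 through 7.15 to 7.29. Every cultured array was above every 0 h array, and the 24 h and 48 h arrays overlapped. The mean rose from 6.63 ± 0.18 (SD, n = 5) to 7.47 ± 0.20 (SD, n = 6) at 24 h, a 1.79-fold difference (log2 0.84 ± 0.10, adjusted p = 2.38e-05), and was higher in 5 of 5 batches, by 0.71 to 1.10. At 48 h it stood at 7.12 ± 0.15 (SD, n = 6), 1.40-fold above 0 h (log2 0.49 ± 0.10, adjusted p = 0.00539) and again higher in 5 of 5 batches. All 6 batches gave a lower value at 48 h than at 24 h, but the difference of -0.35 ± 0.10 did not pass (adjusted p = 0.138). It passed when the arrays were quantile-normalized again (-0.41, adjusted p = 0.0457).

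Tnfrsf21 encodes death receptor 6, known from neurons and lymphocytes and able to bind the amyloid precursor protein (chr17:43016555-43089188). Its representative probe set, 1450731_s_at, read 7.12, 6.75, 6.61, 6.91 and 6.59 at 0 h. It ranged from 6.74 to 7.59 at 24 h (median 7.23) and from 7.40 to 7.87 at 48 h (median 7.54). The 48 h arrays lay above every 0 h array, while the 24 h arrays overlapped both other times. The mean of 6.80 ± 0.22 (SD, n = 5) in fresh islets was followed by 7.22 ± 0.31 (SD, n = 6) after 24 h and by 7.57 ± 0.17 (SD, n = 6) after 48 h. The rise at 48 h was 1.71-fold (log2 0.78 ± 0.14, adjusted p = 0.000974, higher in 5 of 5 batches by 0.31 to 0.94). The difference at 24 h did not pass (0.42 ± 0.14, adjusted p = 0.0620), nor did that between 24 h and 48 h (0.35 ± 0.13, adjusted p = 0.280). Without 0 h replicate 1 or without 24 h replicate 2, the 24 h difference passed (0.50, adjusted p = 0.0304, and 0.52, adjusted p = 0.0116). It also passed with only probe sets above the table's median (adjusted p = 0.0424) and as the mean of both probe sets (0.36, adjusted p = 0.0322). The gene's other probe set, 1422740_at, went from 5.34 ± 0.16 (SD, n = 5) to 5.64 ± 0.29 (SD, n = 6) and 5.56 ± 0.18 (SD, n = 6). Its difference at 48 h was 0.22 ± 0.13 (95% interval -0.04 to 0.49, adjusted p = 0.341). The rise of Tnfrsf21 was thus seen with 1 of its 2 probe sets, 1450731_s_at. With _x_at and _s_at probe sets left out, Tnfrsf21 did not pass at 48 h (0.22, adjusted p = 0.351).

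Fas encodes the receptor for Fas ligand, through which cytotoxic lymphocytes can kill beta cells (chr19:34290647-34327775). Its probe set read 2.69, 2.75, 2.81, 2.73 and 2.33 at 0 h, ran from 2.47 to 2.60 at 24 h (median 2.58) and from 2.48 to 2.69 at 48 h (median 2.58). All 17 values were under the table's median, and no fold is given. Tnfrsf10b, which encodes the mouse receptor for the death ligand TRAIL (chr14:69767472-69784411), was likewise under it on every array. Its probe sets ranged over all arrays from 2.50 to 3.31 (1422344_s_at) and from 2.31 to 2.82 (1421296_at). Neither gene passed in any comparison, and the lowest adjusted p of their probe sets was 0.333. The signals of Fas and Tnfrsf10b were thus not separated from background at any time.

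Among the receptors that bind TRAF proteins without a death domain, Tnfrsf12a encodes Fn14, the receptor for the cytokine TWEAK, a small protein induced by growth factors and injury in many tissues (chr17:23675445-23677449). Its representative probe set, 1418571_at, read 5.79, 4.98, 5.82, 5.07 and 5.31 at 0 h. At 24 h it ran from 5.97 through a median of 6.35 to 6.74, above every 0 h array. At 48 h it ran from 5.54 through 5.96 to 6.37 and overlapped both earlier times. The mean of 5.39 ± 0.39 (SD, n = 5) rose to 6.31 ± 0.28 (SD, n = 6) at 24 h, 1.89-fold (log2 0.92 ± 0.18, adjusted p = 0.00190), and was higher in 5 of 5 batches by 0.62 to 1.26. The other probe set, 1418572_x_at, rose as well (0.95 ± 0.14, adjusted p = 0.000165). At 48 h the representative probe set stood at 5.93 ± 0.29 (SD, n = 6) and did not pass against 0 h (0.53 ± 0.18, adjusted p = 0.0686). It passed without 0 h replicate 1 (0.63, adjusted p = 0.0383), without 0 h replicate 3 (0.64, adjusted p = 0.0348) or without 48 h replicate 2 (0.61, adjusted p = 0.0444). It also passed with each array centred on its median (adjusted p = 0.0480), with only probe sets above the table's median (adjusted p = 0.0465) and as the mean of both probe sets (0.62, adjusted p = 0.0115). The other probe set rose at 48 h (0.70 ± 0.14, adjusted p = 0.00358), with no overlap between its 48 h arrays (5.55 to 6.19) and its 0 h arrays (4.85 to 5.46). An _x_at probe set can hold probes shared with other transcripts. The difference between 24 h and 48 h was -0.38 ± 0.17 (adjusted p = 0.388).

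Cd40 encodes the receptor for CD40 ligand, best known from B cells, dendritic cells and macrophages (chr2:165055614-165071654). Its representative probe set, 1449473_s_at, read 4.12, 4.28, 4.18, 4.41 and 4.53 at 0 h. The 24 h arrays ran from 4.53 through a median of 5.11 to 5.40, and the 48 h arrays from 4.32 through 4.49 to 4.74. All 24 h arrays were above the 0 h arrays, the lowest of them (replicate 5) only just, and the 48 h arrays overlapped both other times. The mean rose from 4.30 ± 0.17 (SD, n = 5) to 5.06 ± 0.33 (SD, n = 6) at 24 h, 1.69-fold (log2 0.75 ± 0.14, adjusted p = 0.00105), and was higher in 5 of 5 batches by 0.57 to 1.23.

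All 3 probe sets of Cd40 rose at 24 h. The second, 1439221_s_at, rose by 1.08 ± 0.17 (adjusted p = 0.000363), from a 0 h mean of 3.60 at which 2 of 5 arrays were under the table's median. The third, 1460415_a_at, rose by 0.43 ± 0.11 (adjusted p = 0.0193), a call lost without 0 h replicate 1 (adjusted p = 0.0600). At 48 h the representative probe set was at 4.50 ± 0.17 (SD, n = 6), 0.20 ± 0.14 from 0 h (95% interval -0.08 to 0.49, adjusted p = 0.440), and neither other probe set passed. The step from 24 h to 48 h, -0.55 ± 0.13, did not pass (adjusted p = 0.0666). It passed as a fall when 24 h replicate 5 was left out (-0.66, adjusted p = 0.00936), an array on which this probe set read 4.53 while 1460415_a_at read its highest value, 4.75.

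**Figure D2:**
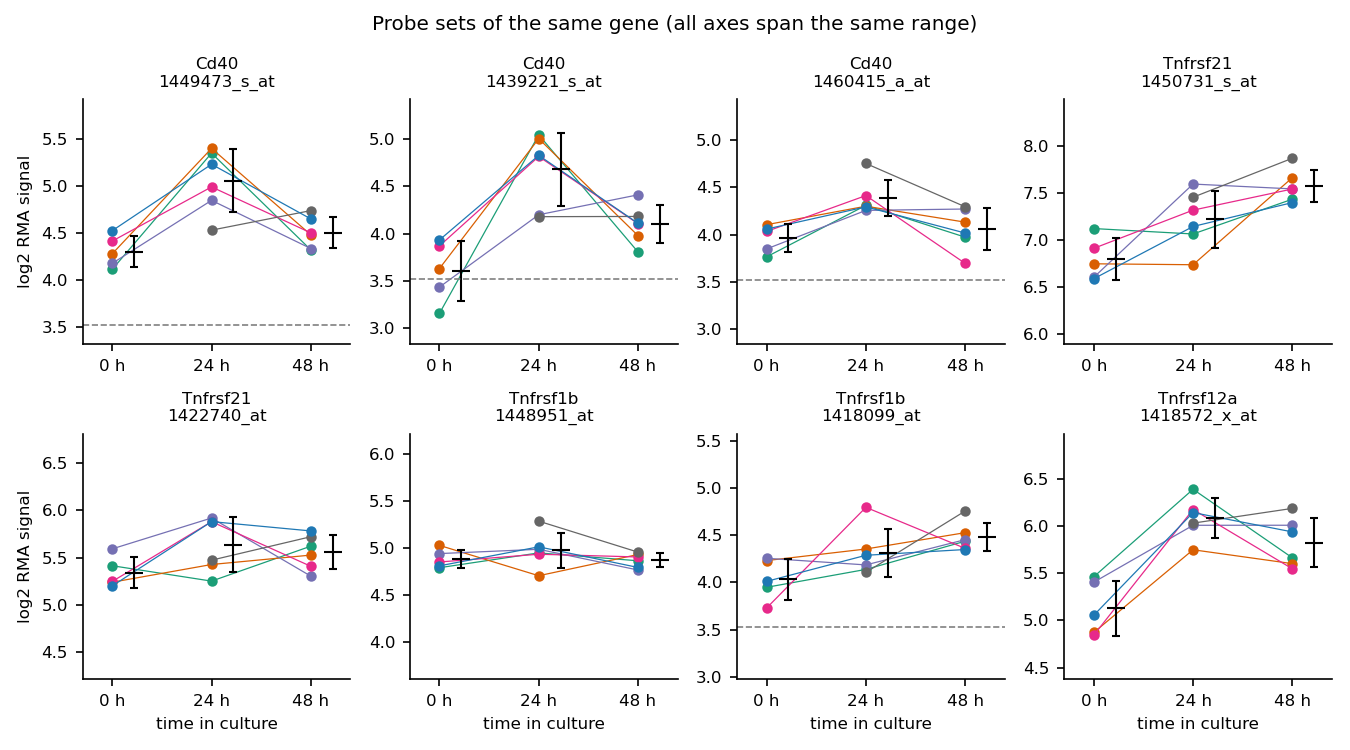
Signal (log2, RMA) against time in culture for the 3 probe sets of Cd40, both of Tnfrsf21, both of Tnfrsf1b and the second of Tnfrsf12a, with 1 point per array in the batch colours of the plot of all 9 genes, black bars for mean ± SD and a dashed line at 3.52. The Cd40 probe sets all rose at 24 h, by 0.75, 1.08 and 0.43, while the probe sets of Tnfrsf21 and of Tnfrsf1b differed from each other at 48 h.

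Tnfrsf1b encodes the second TNF receptor, which responds mainly to membrane-bound TNF (chr4:145212368-145246870). The representative probe set, 1448951_at, read 4.79, 5.03, 4.94, 4.85 and 4.81 at 0 h, ran from 4.71 to 5.29 at 24 h (median 4.97) and from 4.77 to 4.96 at 48 h (median 4.89). The 3 groups overlapped, and the differences from 0 h were 0.09 ± 0.08 at 24 h (adjusted p = 0.614) and -0.01 ± 0.08 at 48 h (95% interval -0.19 to 0.16, adjusted p = 0.951). The other probe set, 1418099_at, rose at 48 h, from 4.03 ± 0.22 (SD, n = 5) to 4.48 ± 0.15 (SD, n = 6), by 0.45 ± 0.12 (adjusted p = 0.0262), with all 48 h arrays above the 0 h arrays. It no longer passed with the batch as a block (adjusted p = 0.0682), nor in 5 of 17 fits without a single array (adjusted p = 0.0868 without 0 h replicate 4). Tnfrsf1b therefore showed a rise at 48 h with 1418099_at, and no difference that passed with 1448951_at.

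Ltbr encodes the lymphotoxin beta receptor, needed for the formation of lymphoid tissue and an activator of the non-canonical NF-kappaB pathway (chr6:125306571-125313885). It read 4.27, 3.97, 4.81, 4.25 and 4.44 at 0 h, ran from 4.31 to 4.90 at 24 h (median 4.66) and from 4.15 to 4.57 at 48 h (median 4.28). The 3 groups overlapped. The difference at 24 h, 0.31 ± 0.13, did not pass (adjusted p = 0.197) except when 0 h replicate 3, the highest array of that time, was left out (0.43, adjusted p = 0.0399). At 48 h it was -0.02 ± 0.13 from 0 h (95% interval -0.30 to 0.26, adjusted p = 0.962). All 6 batches were lower at 48 h than at 24 h, by 0.06 to 0.69, without passing (-0.33 ± 0.13, adjusted p = 0.322).

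The secreted member, Tnfrsf11b, encodes osteoprotegerin, a decoy that binds the ligands RANKL and TRAIL (chr15:54250619-54278484). Its representative probe set, 1449033_at, read 3.17, 3.50, 3.34, 4.10 and 4.23 at 0 h. The 24 h arrays ran from 2.48 through a median of 2.86 to 3.54, and the 48 h arrays from 2.62 through 2.91 to 3.38. Replicates 4 and 6 stood above the other 0 h arrays, and the groups overlapped. The mean was 3.67 ± 0.47 (SD, n = 5) in fresh islets, 2.95 ± 0.42 (SD, n = 6) after 24 h and 2.91 ± 0.28 (SD, n = 6) after 48 h. The signal passed as lower at 24 h (adjusted p = 0.0426, lower in 5 of 5 batches) and at 48 h (adjusted p = 0.0328, higher in 1 of 5 batches). It was under the table's median on 3 of 5 arrays at 0 h, 5 of 6 at 24 h and 6 of 6 at 48 h, so that neither a fold nor a log2 difference is given.

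Leaving out single arrays ended both calls for Tnfrsf11b. At 24 h the difference no longer passed when any one of 10 of the 17 arrays was left out: 0 h replicate 2, 4 or 6, 24 h replicate 1, 2, 3 or 5, and 48 h replicate 2, 4 or 6 (adjusted p up to 0.127). At 48 h this held for 6 arrays: 0 h replicate 4 or 6 and 48 h replicate 1, 2, 5 or 6 (adjusted p up to 0.101). The other probe set, 1418309_at, lay between 2.45 and 2.95 on all arrays and did not pass.

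**Figure D3:**
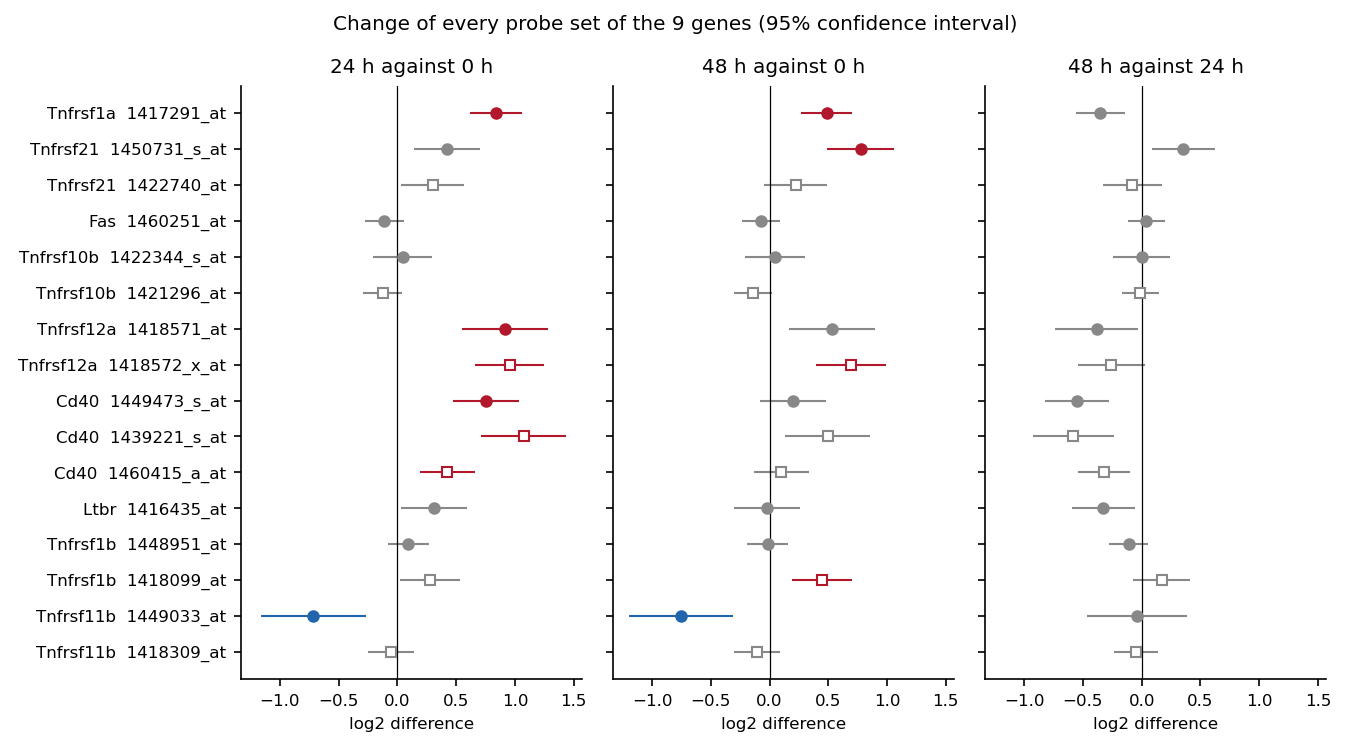
Log2 difference of every probe set of the 9 genes in the 3 comparisons, with 95% confidence intervals; filled circles are representative probe sets, open squares the other probe sets, red a rise, blue a fall and grey a difference that did not pass. At 24 h the rises were Tnfrsf1a (0.84), both probe sets of Tnfrsf12a and all 3 of Cd40, and no probe set passed between 24 h and 48 h.

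The ligands of these receptors were mostly not measured above background. Of 18 ligand genes of the superfamily that were listed, 14 had a probe set of their own, and 8 of these stayed below the table's median throughout. At 24 h 0 rose and 1 fell, and at 48 h 0 rose and 2 fell, with list medians of -0.04 and -0.07. At an unadjusted limma p under 0.05, 1 ligand gene was higher at 24 h and 0 at 48 h. Tnf, the ligand of Tnfrsf1a and Tnfrsf1b, stood at 4.30 ± 0.21 (SD, n = 5), 4.47 ± 0.07 (SD, n = 6) and 4.29 ± 0.25 (SD, n = 6) at the 3 times and did not pass. Lta, Ltb, Fasl, Tnfsf11 and Tnfsf14, which encode both lymphotoxins, Fas ligand, RANKL and LIGHT, had means between 2.59 and 3.05 at all 3 times, and Cd40lg means between 3.29 and 3.44. Tnfsf12, the gene for TWEAK, had no probe set of its own and is not named here.

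Both ligand genes that changed fell. Tnfsf10 encodes TRAIL, the ligand of the receptor encoded by Tnfrsf10b. Its mean of 5.71 ± 0.24 (SD, n = 5) in fresh islets compared with 5.20 ± 0.40 (SD, n = 6) after 24 h and 4.89 ± 0.17 (SD, n = 6) after 48 h. The 48 h arrays (4.60 to 5.09) lay below all 0 h arrays (5.36 to 5.92), and the fall was by 0.82 ± 0.16 (adjusted p = 0.00278), while the 24 h difference did not pass (adjusted p = 0.0569). Its 2 other probe sets did not pass. Tnfsf13b, the B cell survival factor BAFF, passed as lower at 24 h (adjusted p = 0.00520) and at 48 h (adjusted p = 0.000362). Its mean signal of 3.67 at 0 h was close to the table's median, and the means of 3.28 and 3.12 in culture came from arrays that were all under it, so that no size is given.

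Among the other receptors of the family no gene passed without a block for the batch. With it Eda2r, an ectodysplasin receptor whose values were all under the table's median, passed at 24 h (adjusted p = 0.0447). Of 19 listed, 18 had a probe set of their own, 11 were below the table's median on all arrays, and 0 rose and 0 fell in each of the 3 comparisons by limma. At an unadjusted p under 0.05, 2, 2 and 5 of them passed at 24 h, at 48 h and between these times. Their differences at 24 h ran from -0.18 to 0.31 and at 48 h from -0.24 to 0.44.

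Genes of receptor-proximal signalling, from adaptors to the IKK complex and the effector of necroptosis, changed in a few cases. By their representative probe sets, of 34 measured genes in the list, 4 rose and 0 fell at 24 h, and 3 rose and 0 fell at 48 h, while 3 and 1 were lower at an unadjusted limma p under 0.05. Ikbkg encodes NEMO, the regulatory subunit of the IKK complex that activates NF-kappaB. It rose from 6.98 ± 0.12 (SD, n = 5) to 8.10 ± 0.14 (SD, n = 6) at 24 h, 2.17-fold (log2 1.12 ± 0.08, adjusted p = 3.08e-08), and all 5 of its other probe sets rose too. It was at 7.53 ± 0.10 (SD, n = 6) at 48 h, above 0 h (0.55 ± 0.08, adjusted p = 0.000158) and below 24 h (-0.57 ± 0.08, adjusted p = 0.00211), with no overlap between the 3 times. No other listed pathway gene passed between 24 h and 48 h. Cflar, which encodes the caspase-8 inhibitor FLIP, did not pass by its representative probe set (0.10 ± 0.16 at 24 h and 0.25 ± 0.16 at 48 h). Of its 4 other probe sets 2 fell, 1453482_at by 0.63 ± 0.10 at 24 h (adjusted p = 0.000477) and 0.58 ± 0.10 at 48 h (adjusted p = 0.00123), and 1449317_at by 0.42 ± 0.11 (adjusted p = 0.0241) and 0.49 ± 0.11 (adjusted p = 0.00884). The probe sets of Cflar thus did not show a common direction.

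Mlkl, the effector of necroptosis, rose 1.82-fold at 24 h (0.86 ± 0.16, adjusted p = 0.00116) and did not pass at 48 h (0.50 ± 0.16, adjusted p = 0.0585). Birc3, an inhibitor of apoptosis that binds TRAF2, rose by 0.59 ± 0.18 at 24 h (adjusted p = 0.0425) with the representative probe set only, the other differing by -0.07. Tradd, the adaptor that binds the death domain of TNF receptor 1, rose by 0.37 ± 0.11 at 24 h (adjusted p = 0.0471) and by 0.46 ± 0.11 at 48 h (adjusted p = 0.0136). At 24 h both Birc3 and Tradd failed to pass when any one of 11 of the 17 arrays was left out, with adjusted p up to 0.110 for Birc3 (without 0 h replicate 2) and 0.126 for Tradd (without 0 h replicate 3). That of Tradd was also lost with the batch as a block (adjusted p = 0.0590). Of the other probe sets of Tradd, 1429117_at rose at 24 h (0.40 ± 0.08, adjusted p = 0.00395, and 0.0242 with the block) and at 48 h (0.57 ± 0.08, adjusted p = 0.000195), and 1439910_a_at did not pass. Traf2, which encodes an adaptor shared by both TNF receptors, rose by 0.41 ± 0.10 at 48 h (adjusted p = 0.0168), a call lost without 0 h replicate 4 (adjusted p = 0.0565).

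Among NF-kappaB subunits and inhibitors, 1 of 10 measured genes rose at each time. This was Bcl3, a nuclear member of the I-kappaB family. Its 0 h arrays read 4.83, 4.11, 4.61, 4.88 and 4.13, its 24 h arrays ran from 5.05 through a median of 6.23 to 6.41, and its 48 h arrays from 5.26 through 5.58 to 6.08. It rose 2.80-fold at 24 h (1.49 ± 0.23, adjusted p = 0.000236) and 2.14-fold at 48 h (1.10 ± 0.23, adjusted p = 0.00433), with no overlap with 0 h.

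Of 11 measured death effectors, 0 rose (3 were higher at an unadjusted limma p under 0.05) and 1 fell at 24 h, and 1 rose and 1 fell at 48 h. Dffb, which encodes the caspase-activated DNase, rose from 4.92 ± 0.25 (SD, n = 5) to 5.99 ± 0.26 (SD, n = 6) at 48 h, 2.10-fold (1.07 ± 0.15, adjusted p = 0.000166), while its other probe set differed by 0.14 and did not pass. Casp12, a caspase tied to stress of the endoplasmic reticulum, was the gene counted as fallen (adjusted p = 0.00787 at 24 h and 0.0111 at 48 h). Its means of 3.28, 2.80 and 2.82 and all 17 of its values were under the table's median, so that no size is given.

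Over the 5 pathway lists together, 5 of 87 measured genes rose and 2 fell at 24 h, 5 rose and 3 fell at 48 h, and 0 rose and 1 fell between 24 h and 48 h. The rises were 5.75% of the listed genes at each time, near the 5.44% and 6.45% of all genes, and the falls were 2.30% and 3.45%, beside 6.66% and 5.27% of all genes. With the batch as a block, 1004 of all 18193 genes rose at 24 h, and 9 of the 87 listed genes did. Bid (0.69, adjusted p = 0.0170), Nfkbiz (0.61, adjusted p = 0.0179), Tnfsf9 (0.77, adjusted p = 0.0132), Dffb (0.55, adjusted p = 0.0224) and Eda2r (adjusted p = 0.0447) were then among them, and Tradd was not. The block also added Birc3 (adjusted p = 0.0207) and Mlkl (adjusted p = 0.0265) at 48 h, and Map3k5 between 24 h and 48 h (0.45, adjusted p = 0.0417).

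**Figure D4:**
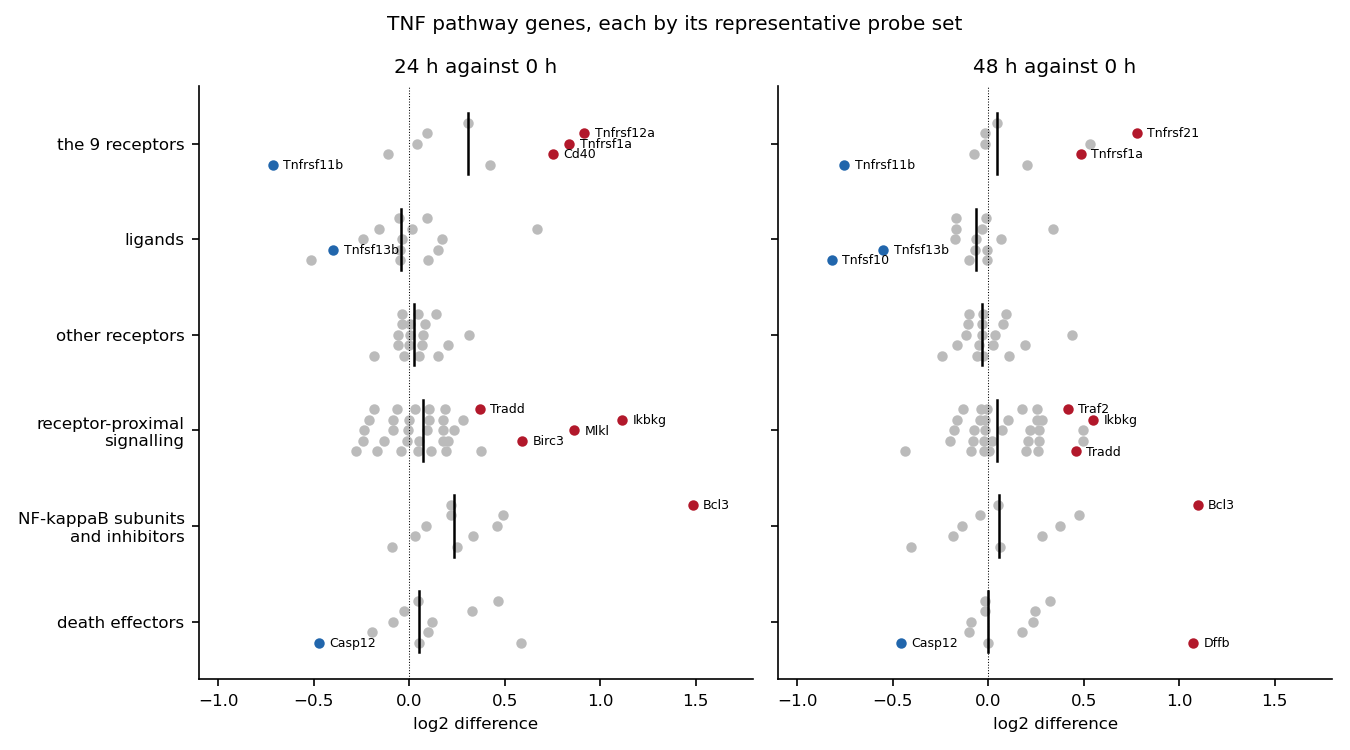
Log2 difference of the 9 receptors and of the genes in 5 pathway lists at 24 h and at 48 h against 0 h, with 1 point per gene by its representative probe set, red for a rise, blue for a fall, grey for a difference that did not pass, and a black line at each list's median. Most genes lie near 0, and Ikbkg (1.12) and Bcl3 (1.49) stand farthest to the right at 24 h.

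Cell types other than the beta cell carry several of these receptors, and their markers moved with time in culture. The mean signal of 15 macrophage and dendritic markers ran from 5.41 to 5.92 on the 0 h arrays, 4.83 to 5.28 on the 24 h arrays and 5.09 to 5.51 on the 48 h arrays. The fall at 24 h, by 0.53, had an exact permutation p of 0.00216 (0.00568 adjusted over 21 tests), the smallest that 5 against 6 arrays can give. The markers of that list did not move together: at 24 h 1 rose (Cd68, from a mean of 3.79 to 5.63) and 7 fell. At 48 h the list mean was 5.34 against 5.60 at 0 h (adjusted exact permutation p = 0.0420), with 2 markers rising, 4 falling and a median difference over the markers of 0.06. That call was lost with each array centred on its median (adjusted exact permutation p = 0.101) and with the mean of a gene's probe sets (0.139). It was also lost without any one of 0 h replicates 1, 3 and 6 and 48 h replicates 1, 2, 4, 5 and 6. Of the 15 markers, 1 was under the table's median on all arrays. The mean of 12 endothelial markers fell by 0.68 at 24 h and by 1.14 at 48 h, with 6 and 8 markers falling and 0 rising by limma (0.00568 for each list mean, exact permutation p adjusted over 21 tests). At an unadjusted p under 0.05, 2 endothelial markers were higher at 24 h and 0 at 48 h. The mean of 12 fibroblast and pericyte markers fell by 0.58 at 24 h and was 0.10 lower than at 0 h at 48 h (adjusted exact permutation p = 0.205). Of these markers 0 rose and 4 fell at 24 h. At 48 h 3 rose and 2 fell, with differences from -3.12 to 1.71, so that the list mean covers opposite changes. It was 0.48 higher at 48 h than at 24 h (adjusted exact permutation p = 0.00568). Over that step the macrophage and dendritic mean was 0.28 higher (adjusted exact permutation p = 0.0289), with 1 marker rising and 2 falling by limma. The endothelial mean was 0.46 lower (adjusted exact permutation p = 0.00568), with 0 rising and 3 falling.

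Acinar markers, which are traces of exocrine tissue, had list means of 5.22 to 8.58 on the 0 h arrays, 3.89 to 7.56 at 24 h and 3.61 to 5.75 at 48 h. The list mean had fallen by 2.23 at 48 h (adjusted exact permutation p = 0.0182) and did not pass at 24 h (0.648). It was 1.75 lower at 48 h than at 24 h (adjusted exact permutation p = 0.0455), a call lost under 9 of 19 alternatives. Beta cell markers, the defining genes of the labelled tissue, had means of 11.52, 11.06 and 11.22 at the 3 times, lower than at 0 h with no overlap (adjusted exact permutation p = 0.00568 each). Of 7 measured, 5 fell at each culture time. The beta cell mean was 0.16 higher at 48 h than at 24 h (adjusted exact permutation p = 0.0152), with 0 markers rising and 0 falling by limma. Of 9 measured lymphocyte markers, 5 were below the table's median on all arrays, and their list mean was between 3.15 and 3.22 at each time. The part of any of these cell types in the changes of the 9 receptors was not tested. Duct markers had list means of 7.35, 7.52 and 7.39, and neither culture time passed against 0 h (adjusted exact permutation p = 0.160 and 0.784). Of 8 measured, 3 rose and 0 fell at 24 h, with differences from -0.92 to 1.19. At 48 h 2 rose and 0 fell, with differences from -1.17 to 0.87, so that the duct means cover opposite changes. The duct mean was 0.14 lower at 48 h than at 24 h (adjusted exact permutation p = 0.0341), a call lost under 7 of 19 alternatives. As a measure of RNA integrity, the excess of the 3' over the 5' actin signal was 2.14, 2.10 and 2.02 at the 3 times (lowest exact permutation p = 0.126, 0.377 adjusted over 3 comparisons). 0 h replicate 3 and 24 h replicate 5 had the lowest median correlations with the other arrays of their time, 0.987 and 0.988. Without both, a choice made after seeing the data, Tnfrsf1a, Tnfrsf12a and Cd40 still rose at 24 h, and Tnfrsf1a and Tnfrsf21 at 48 h. Tnfrsf12a then rose at 48 h as well (0.64, adjusted p = 0.0318), and Tnfrsf11b no longer passed at 24 h (adjusted p = 0.0690). Cd40 then fell between 24 h and 48 h (-0.66, adjusted p = 0.0105).

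The genes with the pattern most like that of each changing receptor were found by Pearson correlation over the 17 arrays, among 11916 genes above the table's median, as a description in which shared time and array effects are included. For Tnfrsf1a these were Ifi30 (r = 0.944), a lysosomal reductase used in antigen processing, Eif3c (0.936) and Hfe (0.934), a regulator of iron uptake. For Tnfrsf12a they were Eif6 (0.889), Plaur (0.887), the urokinase receptor, and Timm17a (0.865). For Cd40 they were Apip (0.871), Fabp4 (0.852), a fatty acid binding protein, and Tmem97 (0.851). For Tnfrsf21 they were Kdm2b (0.928), a histone demethylase, Ctnnbl1 (0.905) and Rab18 (0.905). For Tnfrsf11b they were Klf12 (0.874), Serinc3 (0.871) and Afap1 (0.863). The signal of Tnfrsf11b was under the table's median on 3 of 5 arrays at 0 h, 5 of 6 at 24 h and 6 of 6 at 48 h. Its correlations thus rest largely on values not separated from background. None of these lists shared a gene.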

How the data were processed

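Values were the deposited log2 signals of 17 arrays, which the authors computed by RMA, per the submitters' processing notes. The sources used here give no RMA version, and the log base was inferred from the range of 1.55 to 13.81. RMA removes changes shared by most transcripts and compresses differences of weak signals. Of 45101 probe sets, 64 controls were left out and 45037 were tested with no filter on level. The platform annotation paired 34945 with 1 gene symbol, and probe sets with several symbols name no gene here. Gene positions and promoters came from RefSeq (GRCm38.p6).

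With limma 3.58.1 in R 4.3.3, 1 mean per time was fitted to all 17 arrays (lmFit, eBayes) and the 3 comparisons were adjusted by Benjamini-Hochberg. The fit was tested on simulated data. Marker lists and the actin gap were compared by two-sided exact permutation tests over the arrays of the times compared. These tests took no account of arrays that share a batch. The members and lists were chosen with earlier results of these data known. Named genes were all members, passing genes of each list (at most 4), the members' ligands, and the 3 genes most correlated with a member. Outside that rule, Cflar was named after its values were seen, as were the genes added by the batch block. Batches come from the study's design text. Deviations of same-batch arrays correlated at a median of 0.00545 over 16 pairs (range -0.159 to 0.274, 4 above 0.1), and limma's consensus correlation was 0.0183.

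The 30 alternatives covered each array left out in turn, the batch as a block (fixed, or random), batches with all 3 times, weighted arrays, a trended and robust prior, arrays centred on their medians or quantile-normalized again, only probe sets above the table's median, no _x_at or _s_at probe sets, only the times compared, other representatives of a gene, and leaving out both arrays that stood apart, the last chosen after seeing the data. Array number limits the precision.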

Additional observations from a re-analysis of the deposited data

Results flagged for a closer look

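In 48 groups of arrays (16 probe sets at 3 times), 6 held an array whose gap to the others was large for the range of its group by Dixon's criterion, which chance gives in about 1 in 20 groups. Of these 6, 4 concern probe sets under the table's median. On 0 h replicate 6 Fas read 2.33, where the others of its group read 2.69 to 2.81. Tnfrsf10b 1422344_s_at read 3.31 on 24 h replicate 5, against 2.55 to 2.83. Tnfrsf10b 1421296_at read 2.82 on 24 h replicate 4, against 2.44 to 2.57, and 2.31 on 48 h replicate 2, against 2.52 to 2.64. Tnfrsf1b 1418099_at read 4.80 on 24 h replicate 4, against 4.11 to 4.35, while the other probe set of that gene read 4.93 there, inside its range of 4.71 to 5.29. Cd40 1460415_a_at read 4.75 on 24 h replicate 5, against 4.26 to 4.41, and the other Cd40 probe sets read their lowest values of that time on the same array (4.53 and 4.18).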

How the results depend on the processing

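The rises of Tnfrsf1a, Tnfrsf12a and Cd40 at 24 h and of Tnfrsf1a at 48 h kept their direction and passed under all 30 alternatives, with differences of 0.79 to 0.90, 0.81 to 1.08, 0.43 to 1.08 and 0.43 to 0.54. That of Tnfrsf21 at 48 h passed under 29 of 30. Without _x_at and _s_at probe sets it was 0.22 (adjusted p = 0.351), and 1 receptor rather than 2 rose at 48 h. Tnfrsf1b at 48 h, which did not pass by its representative probe set (-0.01), rose with the probe set of largest interquartile range (0.45). The count of receptors that fell at 24 h went from 1 to 0 with complete batches, the trended and robust prior, median centring, quantile normalization again, the filter on level, only the times compared, or both arrays that stood apart left out. At 48 h it went from 1 to 0 with complete batches or the filter on level. Between 24 h and 48 h it went from 0 to 1 with complete batches, array weights, quantile normalization again, the filter on level, the mean of a gene's probe sets, or both arrays left out, the receptor being Tnfrsf1a with quantile normalization and Cd40 with the others. Pathway genes that rose went from 5 to 9 at 24 h with the batch as a fixed replicate block, from 5 to 8 at 48 h with median centring, and from 0 to 1 between 24 h and 48 h with either. Over all 18193 genes the rises went from 990 to 1004 with that block at 24 h. With median centring they went from 1174 to 1430 at 48 h. Pathway genes that fell at 24 h went from 2 to 4 with quantile normalization again, and all genes that fell from 1211 to 1282. Leaving out 1 array at a time gave 0 to 1 receptors that fell in each comparison, 3 to 4 that rose at 24 h, and 2 to 3 at 48 h. It gave 3 to 7 pathway genes that rose at 24 h, 5 to 8 at 48 h and 0 to 1 between 24 h and 48 h. Counts over all genes are not given for the fits without a single array, so these ranges have no background beside them. The filter on level tests fewer probe sets and left Tnfrsf11b untested, so that a fall of that gene could not be counted there. The cause of the other changes was not tested. As a block the batch changed no call of a receptor's representative probe set. The share of rises among all gene calls at 48 h was 55.0%, and 67.0% with median centring. Between 24 h and 48 h it was 56.5%, against 68.8% with median centring and 42.7% with quantile normalization again.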
